A study of Rattus norvegicus with 50 samples.

Results

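The expression of 9 genes of antigen presentation to CD4+ T cells was followed in the lungs of rats that breathed nickel subsulfide. They encode parts of the MHC class II pathway and the classical costimulatory ligands, and they make up 9 of the 13490 genes tested. RT1-Ba and RT1-Bb encode the alpha and beta chains of one rat class II molecule, RT1-B, and RT1-Da encodes the alpha chain of the other, RT1-D. RT1-DMa and RT1-DMb encode the 2 chains of the peptide editor DM, Cd74 encodes the invariant chain, Ciita encodes the class II transactivator, and Cd80 and Cd86 encode the ligands of CD28 and CTLA-4. The members were listed by name, and for each gene the probe set with the highest mean over the 50 arrays was used; all 9 were measured.

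The study put 50 arrays on total RNA of micro-dissected distal airway tissue from the right caudal lung lobe of male Fischer F344 rats, about 7 to 8 weeks old on receipt. Controls breathed air with 0 mg/m3 of Ni3S2, and the other animals breathed the aerosol at 0.04 mg/m3 (0.03 mg of nickel), 0.08 mg/m3 (0.06 mg of nickel), 0.15 mg/m3 (0.11 mg of nickel) or 0.60 mg/m3 (0.44 mg of nickel). Sessions took 6 hours and fell on 5 days of each week, so that the 1-week animals had 5 sessions and the 4-week animals 20. With 5 concentrations and both times there were 10 groups of 5 arrays, each array from a different animal. Each group had 13 animals, and the 5 arrayed were those with the best RNA of the 8 kept for expression and nickel burden. Each time had its own control group, and no genotype or other agent differed between groups. The labels name the tissue as broncho-alveolar cells. By mean level, alveolar type 2 markers lay between percentiles 65.1 and 100 of all genes, and club and ciliated markers between 30.9 and 100. Alveolar type 1 markers lay between percentiles 33.1 and 99.5, and monocyte markers between 11 and 100. Endothelial markers lay between percentiles 79.4 and 97.1.

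Class II molecules carry peptides from endocytosed material to the surface of dendritic cells, B cells and macrophages, and in the rat lung also of some alveolar type 2 cells. The invariant chain blocks the groove until it is degraded, DM then exchanges its last fragment for peptide, and CIITA, itself induced by interferon gamma, switches on the genes of the whole pathway through factors bound at conserved X and Y boxes of their promoters. CD80 and CD86 give the T cell the second signal, without which peptide recognition leads to little response.

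Stretches of 4 class II promoters are shown here for the boxes they hold. They come from RefSeq (build GRCr8), run 5' to 3' on the strand of the gene, and have in capitals the letters GATTGG (a Y box core), ATTGG (the same box without its first letter) and AGNNAC directly followed by NNNTG (an X box core).
RT1-Da, chr20:4515315-4515385, plus strand: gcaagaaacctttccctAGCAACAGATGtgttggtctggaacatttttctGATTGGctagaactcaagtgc
RT1-Ba, chr20:4576957-4577027, plus strand: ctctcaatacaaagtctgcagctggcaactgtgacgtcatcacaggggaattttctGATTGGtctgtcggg
RT1-Bb, chr20:4604148-4604218, minus strand: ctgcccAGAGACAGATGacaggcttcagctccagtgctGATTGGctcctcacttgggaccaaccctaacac
RT1-DMa, chr20:4712365-4712435, minus strand: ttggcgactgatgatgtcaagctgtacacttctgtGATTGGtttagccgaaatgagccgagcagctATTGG
Searched on both strands from 250 bases before to 50 after the start, GATTGG was found in 4 of the 7 member promoters in the table, those shown here, and in 14.8% of 33469 promoter windows. The X box core stood in 3 of the 7 (RT1-Da, RT1-Bb and Cd74) and in 14.9% of all windows. Both cores stood in RT1-Da and RT1-Bb and in 2.04% of all windows, with the X core starting 33 bases before the Y core in RT1-Da and 32 bases before it in RT1-Bb. CCAAT, which GATTGG contains in inverted form, was in 6 of the 7 promoters and in 37.5% of all windows. Cd80 held only CCAAT, 143 bases before its start, and the Cd86 window held none of these letters. A match describes the letters only, and no binding was measured.

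The values are log2 intensities, and array medians lay between 5.25 and 5.61. Different genes are read by different probes, so a percentile of mean level describes signal and is no measure of relative abundance. Along the first principal component, which held 63.5% of the variance over all genes, the 1-week controls lay between -75.3 and -43.6 and the 1-week group at 0.04 mg/m3 between -85.1 and -62.9. The 20 exposed arrays and 5 controls of 4 weeks lay between 9.6 and 41, with the controls between 28.6 and 35.4. The 1-week groups at 0.15 and 0.60 mg/m3 lay from -3 to 14, which reached past the lowest 4-week array (9.6). That at 0.08 mg/m3 was spread from -64.8 to 5.5. The 2 control groups therefore stood apart, and 73.4% of all genes differed between them (limma, adjusted p under 0.05 over all genes, the threshold used throughout). Age, time and handling cannot be told apart there, and the 1-week results are given against both control groups.

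**Figure D1:**
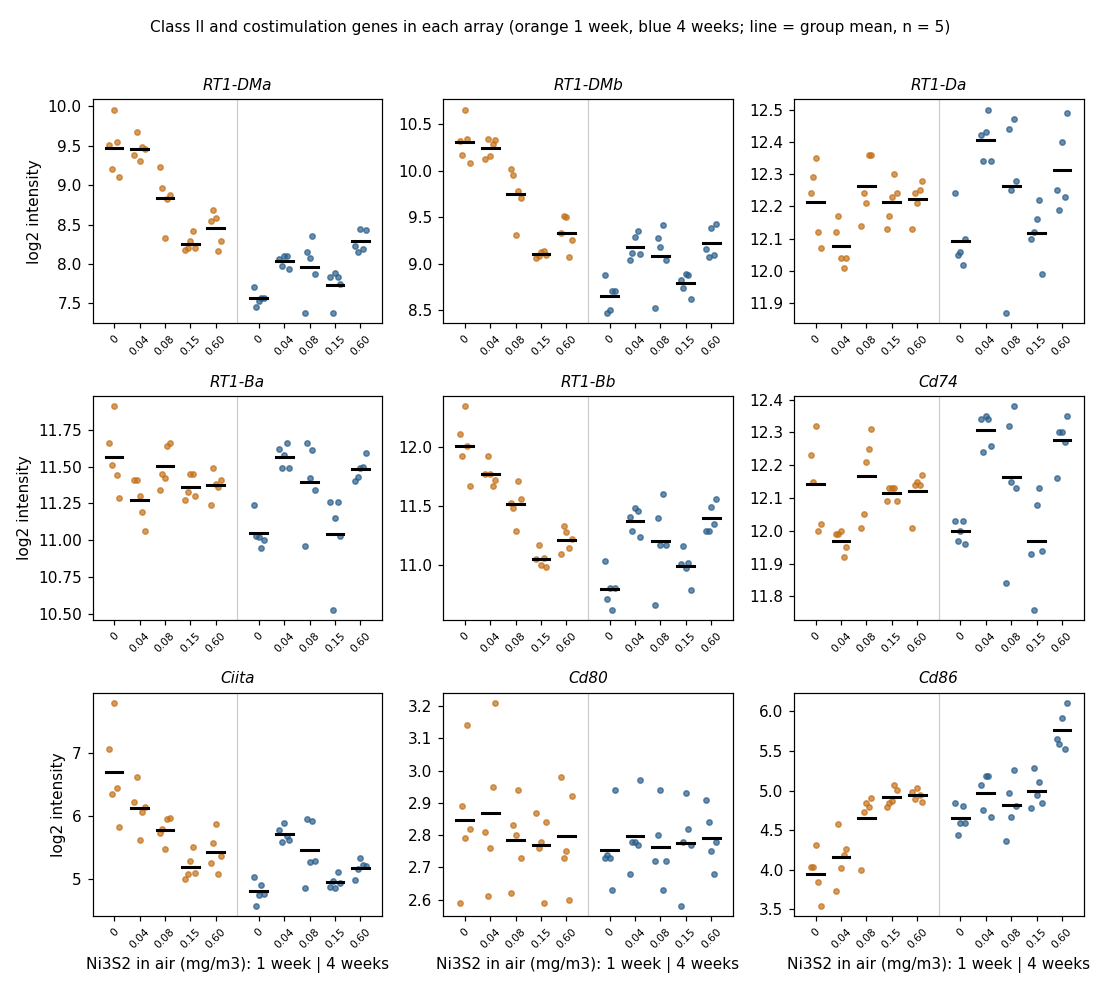
Log2 intensity of the 9 genes in each of the 50 arrays (points), by Ni3S2 concentration in mg/m3 at 1 week (orange, left) and 4 weeks (blue, right); horizontal lines are means of 5 arrays and vertical scales differ between panels. RT1-DMa, RT1-DMb, RT1-Bb and Ciita were highest in the 1-week controls and lowest in the 4-week controls, and Cd86 was highest at 0.60 mg/m3 for 4 weeks.

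After 4 weeks at 0.60 mg/m3, 7 of the 9 genes were higher than in the 4-week controls and none was lower, where 9.48% of all genes were called higher and 7.91% lower. Both DM chains, the 3 class II chains, the invariant chain and Cd86 rose, while Ciita and Cd80 did not pass the test. In 6 of the 7 all exposed arrays lay above all controls, as they did for 10.5% of all genes. The median change of the 9 genes was 0.43 on the log2 scale and that of all genes 0.00. The p-values rest on the spread between animals within groups, with an estimate for each gene that all 10 groups share.

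Cd86, at percentile 26.2 of all genes by mean level, had the largest change of the 9. It read 4.84, 4.44, 4.59, 4.81 and 4.59 in the controls and 5.65, 5.59, 5.92, 5.53 and 6.11 at 0.60 mg/m3. Every exposed array was higher than every control, by a mean of 1.11 ± 0.15 (SE; 2.16-fold, limma adjusted p = 4.7e-07).

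The DM editor, which sits in the peptide loading compartment, rose in both of its chains. RT1-DMa read 7.71, 7.45, 7.53, 7.57 and 7.57 in the controls and 8.23, 8.15, 8.44, 8.19 and 8.43 after exposure, a rise of 0.72 ± 0.14 (1.65-fold, limma adjusted p = 0.000123). RT1-DMb read 8.88, 8.47, 8.50, 8.71 and 8.71 in the controls and 9.16, 9.07, 9.38, 9.09 and 9.43 after exposure, a rise of 0.57 ± 0.12 (1.49-fold, limma adjusted p = 0.000441). Neither chain had an exposed array within the range of the controls.

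Among the chains that hold peptide at the cell surface, RT1-Bb moved most. It read 11.03, 10.71, 10.80, 10.62 and 10.80 in the controls and 11.29, 11.29, 11.49, 11.35 and 11.56 after exposure, a rise of 0.60 ± 0.11 (1.52-fold, limma adjusted p = 4.32e-05). Its partner RT1-Ba read 11.24, 11.03, 11.02, 10.95 and 11.00 in the controls and 11.40, 11.43, 11.49, 11.50 and 11.59 after exposure, a rise of 0.43 ± 0.11 (limma adjusted p = 0.00358). For both RT1-B chains the groups were separate. RT1-Da read 12.24, 12.05, 12.06, 12.02 and 12.10 in the controls and 12.25, 12.19, 12.40, 12.23 and 12.49 after exposure. Its groups overlapped, with 3 of the 5 exposed arrays above all controls, and its rise of 0.22 ± 0.07 (limma adjusted p = 0.0372) was lost when arrays were centred on their median (0.18, adjusted p = 0.0857) or quantile normalised (0.20, adjusted p = 0.0632). It was also lost on leaving out control replicate 2, 3, 4 or 5 or exposed replicate 3 or 5.

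Cd74, whose product escorts class II chains out of the endoplasmic reticulum, read 12.03, 11.97, 12.00, 12.03 and 11.96 in the controls and 12.16, 12.30, 12.30, 12.27 and 12.35 after exposure. The groups were separate, and the rise of 0.28 ± 0.07 was small in size (1.21-fold, limma adjusted p = 0.00449). RT1-Da, Cd74 and Ciita lay at percentiles 99.5, 99.4 and 31.9 of all genes by mean level. Ciita, the transactivator, read 5.03, 4.57, 4.74, 4.91 and 4.77 in the controls and 4.98, 5.16, 5.33, 5.22 and 5.20 after exposure, a difference of 0.38 ± 0.21 that did not pass the test (limma adjusted p = 0.23). With only the arrays of this comparison in the model the same 0.38 passed (adjusted p = 0.00836), and it passed with array weights (0.39, adjusted p = 0.0491). Cd80 lay at percentile 0.9 of all genes, between 2.58 and 3.21 on all 50 arrays, near the lowest value in the table (2.22). Its difference at 0.60 mg/m3 for 4 weeks was 0.04 ± 0.09 (limma adjusted p = 0.836), and at this signal a change of Cd80 was not detectable.

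The count was the same at 0.04 mg/m3 for 4 weeks, and Ciita led. There 7 of the 9 genes were higher and none lower, where 8.29% of all genes were called higher and 4.61% lower. All 7 had every exposed array above every control, as 12.3% of all genes had. These were all members but Cd80 and Cd86.

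Ciita read 5.78, 5.59, 5.89, 5.69 and 5.62 at 0.04 mg/m3, all above the highest control of 5.03, and rose by 0.91 ± 0.21 (1.88-fold, limma adjusted p = 0.00257). RT1-Bb read 11.41, 11.29, 11.48, 11.46 and 11.24 and rose by 0.58 ± 0.11 (limma adjusted p = 0.000283). RT1-Ba read 11.62, 11.49, 11.58, 11.66 and 11.49 and rose by 0.52 ± 0.11 (limma adjusted p = 0.0013). Both RT1-B chains thus exceeded their highest controls, 11.03 for RT1-Bb and 11.24 for RT1-Ba. RT1-DMb rose by 0.53 ± 0.12 (limma adjusted p = 0.00248) and RT1-DMa by 0.47 ± 0.14 (limma adjusted p = 0.0195); the call of RT1-DMa was lost without control replicate 2 or exposed replicate 3 or 4. RT1-Da and Cd74 each rose by 0.31 ± 0.07 (limma adjusted p = 0.00394 and 0.00332). Cd86 read 5.07, 4.75, 5.18, 5.19 and 4.67, with 3 arrays above all controls, and its difference of 0.32 ± 0.15 did not pass (limma adjusted p = 0.172). With a least change of 1.5-fold added to the test, Ciita alone counted at 0.04 mg/m3, and RT1-DMa, RT1-Bb and Cd86 counted at 0.60 mg/m3.

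At 0.08 mg/m3 for 4 weeks, RT1-DMb, RT1-Ba, RT1-Bb and Ciita were higher, 4 of the 9 with none lower, where 5.67% of all genes were called higher and 2.89% lower. Their changes were 0.44 ± 0.12, 0.35 ± 0.11, 0.41 ± 0.11 and 0.66 ± 0.21 (limma adjusted p = 0.0167, 0.0381, 0.0126 and 0.0382). This count rested on single animals. Replicate 1 of the group had the lowest value of its group in RT1-DMa (7.38), RT1-DMb (8.52), RT1-Da (11.87), RT1-Ba (10.96), RT1-Bb (10.66), Cd74 (11.84), Ciita (4.86) and Cd86 (4.36). Without it 7 genes were called, without exposed replicate 2 or 4 none was, without control replicate 2 or 3 the count was 1, and without control replicate 4 or 5 it was 2. With only the arrays of this comparison in the model it was 0.

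At 0.15 mg/m3 for 4 weeks none of the 9 genes passed limma at an adjusted p of 0.05, where 1.93% of all genes were called higher and 1.58% lower. Cd86 came nearest, at 0.34 ± 0.15 (unadjusted p = 0.0335, limma adjusted p = 0.297), and was the only member with an unadjusted p under 0.05; with array weights it was called (adjusted p = 0.0307). In this group, replicate 2 had the lowest RT1-DMa (7.38), RT1-Ba (10.53) and Cd74 (11.76) but the highest RT1-Bb (11.16) and Cd86 (5.28). The 0.15 mg/m3 means of RT1-DMa, RT1-DMb, RT1-Da, RT1-Ba, RT1-Bb, Cd74 and Ciita lay below those at 0.04 and 0.08 mg/m3, a difference that was not tested.

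Set directly against 0.15 mg/m3 at 4 weeks, 0.60 mg/m3 was higher in 6 of the 9 genes and lower in none, where 2.9% of all genes were called in either direction. The differences were 0.77 ± 0.15 for Cd86 (limma adjusted p = 0.00143), 0.55 ± 0.14 for RT1-DMa (0.0145), 0.44 ± 0.11 for RT1-Ba (0.016), 0.43 ± 0.12 for RT1-DMb (0.0346), 0.41 ± 0.11 for RT1-Bb (0.024) and 0.31 ± 0.07 for Cd74 (0.00754). In each of the 6 genes all arrays at 0.60 mg/m3 were above all at 0.15 mg/m3, as they were for 4.3% of all genes. The count fell to 3 without exposed replicate 3 of 0.60 mg/m3 or replicate 2 of 0.15 mg/m3, and to 2 without replicate 5 of 0.60 mg/m3.

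A straight line over the 5 concentrations at 4 weeks rose for 4 of the 9 genes, where 28.7% of all genes had a slope that passed in either direction. The slopes per mg/m3, in log2 units, were 1.70 ± 0.22 for Cd86 (limma adjusted p = 8.89e-08), 0.85 ± 0.20 for RT1-DMa (0.00111), 0.57 ± 0.16 for RT1-Bb (0.00479) and 0.54 ± 0.17 for RT1-DMb (0.0168). Ciita had a slope of -0.11 ± 0.30 (limma adjusted p = 0.82). Among the 4-week groups Ciita, RT1-Da, RT1-Ba and Cd74 had their highest mean at 0.04 mg/m3.

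**Figure D2:**
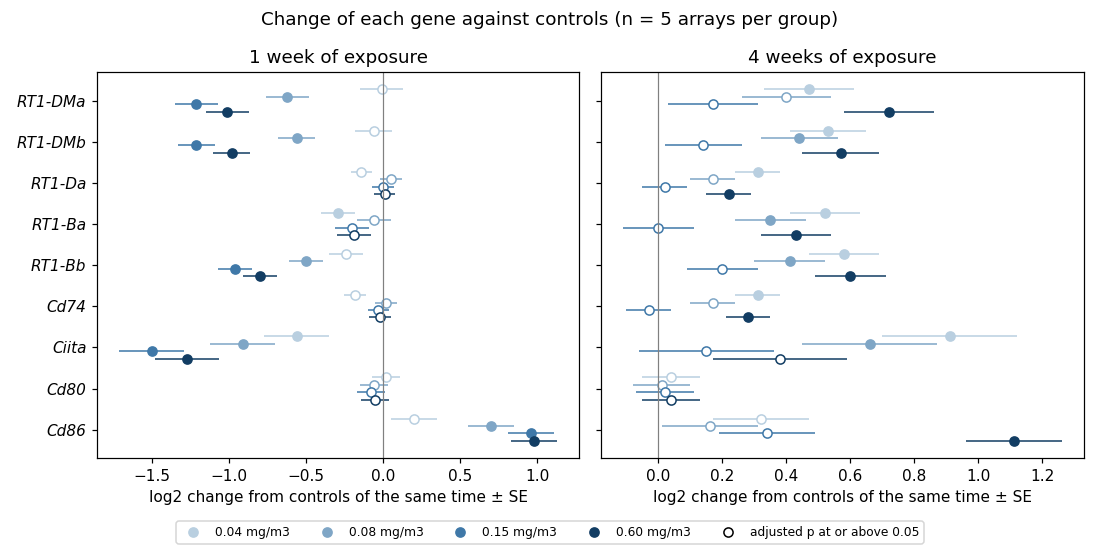
Log2 change of each gene from the controls of the same time (mean difference ± SE of the limma model, 5 arrays a group), for 1 week (left) and 4 weeks (right) of exposure; open circles have an adjusted p at or above 0.05. At 1 week RT1-DMa, RT1-DMb, RT1-Bb and Ciita lie left of 0 from 0.08 mg/m3 upward, and at 4 weeks RT1-DMa, RT1-DMb, RT1-Da, RT1-Ba, RT1-Bb and Cd74 lie right of 0 with filled circles at both 0.04 and 0.60 mg/m3.

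At 1 week the comparison with the controls of that week gave the opposite direction for 4 of the genes. RT1-DMa, RT1-DMb, RT1-Bb and Ciita were lower and Cd86 was higher at 0.60 mg/m3, where 32.2% of all genes were called lower and 32.8% higher, so a share of members of this size is near the background. The same 5 genes were called, in the same directions, at 0.15 mg/m3 (33.7% of all genes lower, 33.8% higher) and at 0.08 mg/m3 (23.5% lower, 25.1% higher). RT1-Da, RT1-Ba, Cd74 and Cd80 passed at none of these 3 concentrations. Of the members, RT1-Ba and Ciita were lower at 0.04 mg/m3 for 1 week and none was higher, where 11.7% of all genes were called lower and 15.2% higher.

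The transactivator showed the largest 1-week difference. Ciita read 7.06, 6.35, 7.80, 6.45 and 5.83 in the 1-week controls and 5.25, 5.58, 5.88, 5.08 and 5.36 at 0.60 mg/m3, with 1 exposed array reaching into the controls, a fall by 1.27 ± 0.21 (limma adjusted p = 8.08e-07). At 0.15 mg/m3 it read 5.00, 5.08, 5.29, 5.51 and 5.09 and fell by 1.5 ± 0.21 (limma adjusted p = 2e-08). The controls of this week had an SD of 0.76, the largest of any member and group. A covariate was taken from the spread between animals within the 1-week controls and within the 1-week group at the lowest concentration. It was the position of each array along the main axis of that spread, not along the first principal component given earlier. With this axis as a covariate, Ciita no longer passed at 0.15 mg/m3 (-0.49, limma adjusted p = 0.129) or 0.60 mg/m3 (-0.37, limma adjusted p = 0.22).

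The DM chains and RT1-Bb followed the same order. RT1-DMa read 9.51, 9.20, 9.96, 9.55 and 9.11 in the 1-week controls and 8.55, 8.69, 8.58, 8.16 and 8.29 at 0.60 mg/m3, a fall by 1.01 ± 0.14 (limma adjusted p = 1.71e-08). RT1-DMb read 10.32, 10.17, 10.66, 10.34 and 10.08 in the controls and 9.33, 9.51, 9.50, 9.07 and 9.25 at 0.60 mg/m3, a fall by 0.98 ± 0.12 (limma adjusted p = 1.4e-09). Neither DM chain had groups that overlapped. RT1-Bb read 12.11, 11.93, 12.35, 12.01 and 11.67 in the controls and 11.09, 11.33, 11.28, 11.14 and 11.22 at 0.60 mg/m3, a fall by 0.80 ± 0.11 (limma adjusted p = 1.42e-08). Its groups were separate too, whereas its partner RT1-Ba differed by -0.19 ± 0.11 (limma adjusted p = 0.14), with 1 exposed array below all controls.

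Cd86 ran the other way at 1 week. It read 4.04, 4.03, 4.31, 3.84 and 3.54 in the controls, 4.79, 4.84, 4.87, 5.07 and 5.01 at 0.15 mg/m3, and 4.98, 4.90, 5.03, 4.94 and 4.85 at 0.60 mg/m3. Both exposed groups lay above all controls, by 0.96 ± 0.15 and 0.98 ± 0.15 (limma adjusted p = 4.32e-07 and 3.22e-07). At 0.08 mg/m3 it rose by 0.70 ± 0.15 (limma adjusted p = 0.000219), with replicate 1 at 4.00 inside the range of the controls and the other 4 arrays between 4.73 and 4.91.

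The 2 calls at 0.04 mg/m3 for 1 week were close to the threshold and depended on single arrays. RT1-Ba fell by 0.29 ± 0.11 (limma adjusted p = 0.047) and Ciita fell by 0.56 ± 0.21 (limma adjusted p = 0.0408), and in both genes the groups overlapped. The count was 0 without control replicate 1 or 3 or without exposed replicate 3, 4 or 5, 1 without control replicate 2, and 4 without control replicate 5. RT1-DMa, which fell at each higher concentration, differed here by -0.01 ± 0.14 (limma adjusted p = 0.97).

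No member passed the test of 0.60 against 0.15 mg/m3 at 1 week (limma, 0.0148% of all genes called in either direction). No member had an unadjusted p under 0.05 either, and RT1-DMb came nearest (0.23 ± 0.12, unadjusted p = 0.0616). A straight line over the 5 concentrations at 1 week rose for Cd86 and fell for RT1-DMa, RT1-DMb, RT1-Bb and Ciita, 5 of the 9 genes. Of all genes, 68.1% had a slope that passed in either direction, so the share of members is not above the background.

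The 1-week directions depended on which controls were used. The 4-week controls were lower than the 1-week controls in RT1-DMa (-1.90 ± 0.14, limma adjusted p = 6.16e-16), Ciita (-1.90 ± 0.21, 4.6e-11), RT1-DMb (-1.66 ± 0.12, 5.48e-16), RT1-Bb (-1.22 ± 0.11, 1.42e-13) and RT1-Ba (-0.51 ± 0.11, 5.57e-05). Cd86 was higher in them by 0.70 ± 0.15 (limma adjusted p = 8.11e-05). Between the control groups 6 of the 9 genes were thus called, beside the 73.4% of all genes given earlier, and RT1-Da, Cd74 and Cd80 were not (-0.12, -0.15 and -0.09).

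Set against the 4-week controls in place of their own, the 1-week arrays at 0.60 mg/m3 had higher RT1-DMa (0.89 ± 0.14, limma adjusted p = 1.08e-06), RT1-DMb (0.68 ± 0.12, 9.61e-06), RT1-Ba (0.33 ± 0.11, 0.0119), RT1-Bb (0.42 ± 0.11, 0.00121) and Ciita (0.63 ± 0.21, 0.0105). For RT1-DMa, RT1-DMb, RT1-Ba, RT1-Bb and Ciita the sign thus turned with the choice of controls, although RT1-Ba (-0.19) had not passed against its own. Cd86 kept its direction, but its rise of 0.28 ± 0.15 no longer passed (limma adjusted p = 0.127). Against these controls 49.4% of all genes were called at 0.60 mg/m3. At 0.15 mg/m3 the differences of RT1-DMa, RT1-DMb and RT1-Bb were 0.69, 0.45 and 0.26, also turned in sign. Cd86 turned at 0.04 mg/m3 for 1 week to -0.50 ± 0.15 (limma adjusted p = 0.00329).

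**Figure D3:**
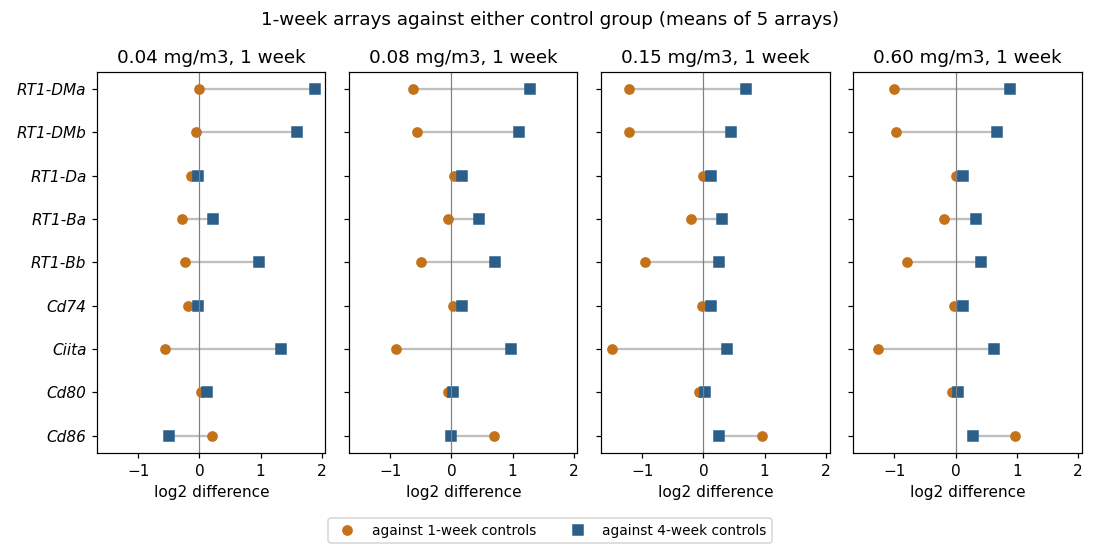
Mean log2 difference of each gene in the 1-week groups (5 arrays each) against the 1-week controls (orange circles) and against the 4-week controls (blue squares). For RT1-DMa, RT1-DMb, RT1-Ba, RT1-Bb and Ciita the markers lie on opposite sides of 0 at the 3 higher concentrations, while RT1-Da, Cd74 and Cd80 lie close to 0 against either control group.

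The change at 4 weeks was compared with the change at 1 week by an interaction term, each time against its own controls. At 0.60 mg/m3, 6 of the 9 genes moved more upward at 4 weeks, where 56.6% of all genes differed in either direction. A share of members of this size is near the background. RT1-DMa differed by 1.74 ± 0.20 (limma adjusted p = 1.1e-09), Ciita by 1.64 ± 0.29 (7.37e-06), RT1-DMb by 1.56 ± 0.17 (6.06e-10), RT1-Bb by 1.40 ± 0.15 (5.67e-10), RT1-Ba by 0.62 ± 0.16 (0.000728) and Cd74 by 0.30 ± 0.10 (0.011). Cd86 did not pass (0.12 ± 0.22, limma adjusted p = 0.659). The interaction contains the difference between the control groups, which exceeded it for RT1-DMa, RT1-DMb and Ciita.

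The background was lower at the lowest concentration, 0.04 mg/m3. There 6 of the 9 genes moved more upward at 4 weeks, where 12% of all genes differed in either direction. Ciita differed by 1.47 ± 0.29 (limma adjusted p = 0.000594), RT1-Bb by 0.82 ± 0.15 (0.00026), RT1-Ba by 0.81 ± 0.16 (0.000408), RT1-DMb by 0.59 ± 0.17 (0.0168), Cd74 by 0.48 ± 0.10 (0.00112) and RT1-Da by 0.45 ± 0.11 (0.00337). At 0.08 mg/m3, 5 genes moved more upward and Cd86 less (44.3% of all genes in either direction). At 0.15 mg/m3, 4 genes moved more upward and Cd86 less (56.7%), so the share of members called there is near the background.

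Over the 10 groups, the members fell into different orders. RT1-DMa ran from 9.47 ± 0.33 (SD, n = 5) in the 1-week controls to 7.57 ± 0.09 in the 4-week controls, and in 3 of the 9 steps of that order neighbouring groups were further apart than the larger of their SDs. Those steps lay below 0.04 mg/m3, below 0.08 mg/m3 and below 0.15 mg/m3, all at 1 week. RT1-DMb (10.31 ± 0.22 to 8.65 ± 0.17) had 2 such steps, RT1-Bb (12.01 ± 0.25 to 10.79 ± 0.15) had 3 and Ciita (6.70 ± 0.76 to 4.80 ± 0.18) had 1. All 4 had the 1-week controls on top and the 4-week controls at the bottom.

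The other chains had another order. RT1-Da was highest at 0.04 mg/m3 for 4 weeks (12.41 ± 0.07) and lowest at 0.04 mg/m3 for 1 week (12.08 ± 0.07), and none of its steps exceeded the spread. RT1-Ba (11.57 ± 0.08) and Cd74 (12.30 ± 0.05) were also highest at 0.04 mg/m3 for 4 weeks, with 1 step each beyond the spread. Cd86 was highest at 0.60 mg/m3 for 4 weeks (5.76 ± 0.25), which stood 0.77 above the next group, and lowest in the 1-week controls (3.95 ± 0.28), with 2 such steps. Cd80 had none.

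The genes also varied together between animals of the same group. Over the 50 deviations from group means, Pearson's r was 0.90 for RT1-DMa with RT1-DMb, 0.85 for RT1-Ba with Cd74 and 0.83 for RT1-Da with RT1-Bb. Ciita correlated at 0.61 to 0.75 with each of the 6 class II genes and Cd74 among them had the lowest value. Cd86 correlated most with RT1-Da (0.72) and least, Cd80 aside, with RT1-DMa (0.32). Cd80 lay between -0.27 and 0.00 with every other member. These values are descriptions over arrays that share normalisation and tissue dissection.

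The genes most like the mean of the 6 class II genes (RT1-DMa, RT1-DMb, RT1-Da, RT1-Ba, RT1-Bb and Cd74) over the 10 group means were RT1-Db1 (r = 0.989), Sema4d (0.983), Irf5 (0.982), C1h16orf54 (0.982) and Ptpn7 (0.979). Over the 50 deviations from group means they were RT1-Db1 (r = 0.939), Limd2 (0.938), Mfge8 (0.894), Cyb561a3 (0.876) and Cmtm3 (0.859). RT1-Db1, the beta chain that pairs with RT1-Da, led both orders. It rose by 0.56 ± 0.11 at 0.60 mg/m3 for 4 weeks (limma adjusted p = 0.000124) and by 0.67 ± 0.11 at 0.04 mg/m3 (3.73e-05).

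RT1-Da, RT1-Ba, RT1-Bb, RT1-DMb and RT1-DMa lie in the class II region of chromosome 20, together with genes that make peptides for class I. In the RefSeq order of 15 genes there, 11 were measured. Tap1 and Tap2 (the peptide transporter) and Psmb8 and Psmb9 (subunits of the immunoproteasome) stand between RT1-Bb and RT1-DMb. At 0.60 mg/m3 for 4 weeks Psmb8 rose by 0.54 ± 0.11 (limma adjusted p = 0.000155), Psmb9 by 0.44 ± 0.10 (0.00162), Tap1 by 0.44 ± 0.15 (0.0281) and Tap2 by 0.34 ± 0.11 (0.0219), in the range of the class II genes on either side. Brd2, at the end next to RT1-DMa, differed by -0.06 ± 0.07 (limma adjusted p = 0.663). Between the control groups RT1-Da was the measured gene of the region that did not pass (-0.12 ± 0.07, limma adjusted p = 0.142), while its partner RT1-Db1 was lower by -1.45 ± 0.11 (8.68e-16) in the 4-week controls.

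**Figure D4:**
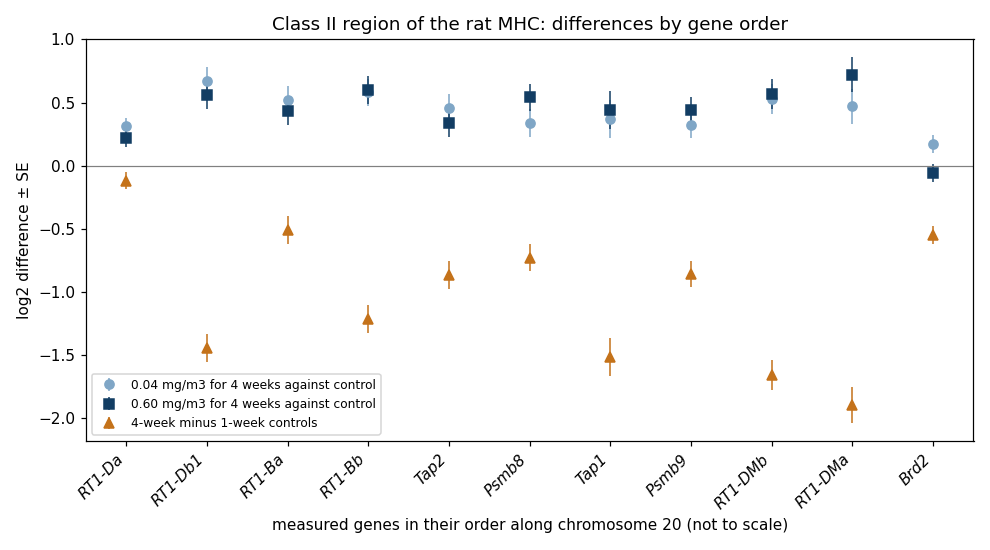
Log2 differences ± SE of the 11 measured genes of the class II region in their order along chromosome 20 (not to scale): 0.04 mg/m3 (circles) and 0.60 mg/m3 (squares) for 4 weeks against control, and 4-week minus 1-week controls (triangles). The 10 genes from RT1-Da to RT1-DMa lie above 0 at both concentrations and below 0 between the controls, from -0.12 for RT1-Da to -1.90 for RT1-DMa.

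Other genes of the pathway were read from lists that do not hold the members. Beside their counts at 0.60 mg/m3 for 4 weeks stand 9.48% of all genes called higher and 7.91% called lower. At 0.60 mg/m3 for 4 weeks, 7 of 11 other class II chains and loading genes rose and 1 fell (median 0.39), among them the endosomal proteases Ctss (0.50 ± 0.16, limma adjusted p = 0.0188) and Lgmn (0.47 ± 0.10, 0.000655) and the thiol reductase Ifi30 (0.47 ± 0.08, 3.74e-05). Of 16 class I presentation genes 11 rose and none fell (median 0.33), with Tapbp, which holds class I at the peptide transporter, at 0.61 ± 0.13 (0.000536). None of 12 factors of class II transcription passed in either direction (median -0.04), and of 10 genes of interferon gamma input only the kinase Jak2 did (0.48 ± 0.16, 0.029). In that list Ifng, Il12a, Il12b and Socs1 lay below the 25th percentile of all genes.

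On the T cell side, 5 of 9 receptors and partners of costimulation rose and 1 fell, with Icos at 1.16 ± 0.20 (limma adjusted p = 3.1e-05) and Tnfrsf4, the OX40 receptor, at 0.98 ± 0.13 (1.09e-07). The CD80 and CD86 receptors Cd28 and Ctla4 were below the 25th percentile, as were Cd4, Cd40lg and Tnfrsf9. Of 10 other costimulatory ligands, Tnfrsf14 (0.91 ± 0.23, 0.00394), Lgals9 (0.84 ± 0.17, 0.000276) and Tnfsf9, the 4-1BB ligand (0.70 ± 0.13, 0.000106), rose and Icam2 fell by 0.48 ± 0.13 (0.00487). At 0.04 mg/m3 for 4 weeks, 2 of 11 class II, 3 of 16 class I, 2 of 9 T cell receptor and 2 of 10 ligand genes rose and none fell. Of all genes, 8.29% were called higher there and 4.61% lower.

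Markers of cells that carry class II also changed. In RNA of dissected tissue, a change in the number of cells of a type and a change in RNA per cell cannot be told apart. At 0.60 mg/m3 for 4 weeks, where 9.48% of all genes were called higher and 7.91% lower, 6 of 10 dendritic cell markers rose and none fell. They were led by the chemokine Ccl17 (1.84 ± 0.24, limma adjusted p = 8.62e-08) and Clec9a, a receptor of cross-presenting dendritic cells (1.17 ± 0.21, 3.51e-05). The mean level of that list relative to all arrays went from between -0.47 and -0.28 in the controls to between 0.12 and 0.46. Of 13 macrophage markers 6 rose and 2 fell, with Cd68 at 1.01 ± 0.15 (1.3e-06). The ranges of the macrophage list overlapped, from -0.20 to 0.15 in the controls and from 0.01 to 0.33 after exposure. Of 9 B cell markers 2 rose, of 11 T cell markers 5 and of 9 monocyte markers 2, with 1 monocyte marker falling. The B cell list went from between -0.55 and -0.23 to between -0.11 and 0.31. The T cell list went from between -0.62 and -0.32 to between -0.23 and 0.52. Of 10 alveolar type 2 markers 6 rose and 2 fell. Of 7 endothelial markers 3 fell and none rose (Kdr -0.49 ± 0.18, Cldn5 -0.48 ± 0.12 and Plvap -0.45 ± 0.13; limma adjusted p = 0.0436, 0.00394 and 0.0136), and their list went from between -0.04 and 0.36 to between -0.26 and -0.01. Of 7 club and ciliated markers 2 fell and none rose (Cyp2f4 -1.25 ± 0.11 and Sec14l3 -0.37 ± 0.06; 4.22e-12 and 4.06e-06), and their list went from between -0.16 and 0.25 to between -0.37 and -0.06. Their part in the result was not tested.

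Lymphocyte markers moved with the members at 0.04 mg/m3 for 4 weeks. B cell markers rose in 7 of 9 (median 1.27) and T cell markers in 10 of 11 (median 1.02), none falling, and dendritic cell markers in 3 of 10. Of all genes, 8.29% were called higher at this concentration. The B cell list lay between -0.55 and -0.23 in the controls and between 0.52 and 0.86 at 0.04 mg/m3, and the T cell list between -0.62 and -0.32 and between 0.23 and 0.57. At 0.08 mg/m3 the B cell markers Blk, Cd22, Cd79b, Cr2, Fcer2 and Ms4a1 were called higher. So were the T cell markers Cd3d and Cd5. No marker of either list was called lower there, where 5.67% of all genes were called higher. Both lists overlapped the controls, the B cell list from -0.26 to 0.89 and the T cell list from -0.71 to 0.63. At 0.15 mg/m3, where no member was called, no marker of either list was called and the B cell list lay between -0.85 and 0.21. Dendritic cell markers did rise there in 3 of 10, where 1.93% of all genes were called higher. Ccl17 rose by 1.38 ± 0.24 (limma adjusted p = 0.000114), Clec9a by 0.87 ± 0.21 (0.00702) and Ccl22 by 0.61 ± 0.15 (0.0104). Their list was separate from the controls (-0.47 to -0.28) at 0.15 mg/m3 (-0.12 to 0.17) and at 0.04 mg/m3 (-0.05 to 0.19) too. Heart and skeletal muscle markers rose in 6 of 8 at 0.04 mg/m3 (median 2.06), from between -0.98 and -0.06 in the controls to between 0.91 and 2.71, and lay between 0.27 and 2.87 at 0.08 mg/m3. The part of these lists in the results was not tested.

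At 0.60 mg/m3 for 1 week 4 of 9 B cell markers and 5 of 11 T cell markers fell and none rose, where 32.2% of all genes were called lower. The B cell list spread from -0.31 to 1.11 in the 1-week controls and from -0.34 to 0.03 at 0.60 mg/m3, and its part in the result was not tested. Of the 12 factors of class II transcription 7 rose and 2 fell at 0.60 mg/m3 for 1 week, where 32.8% of all genes were called higher and 32.2% lower. Among the falling was Rfxank, a subunit of the X box complex, by 0.82 ± 0.13 (limma adjusted p = 4.08e-07).

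**Figure D5:**
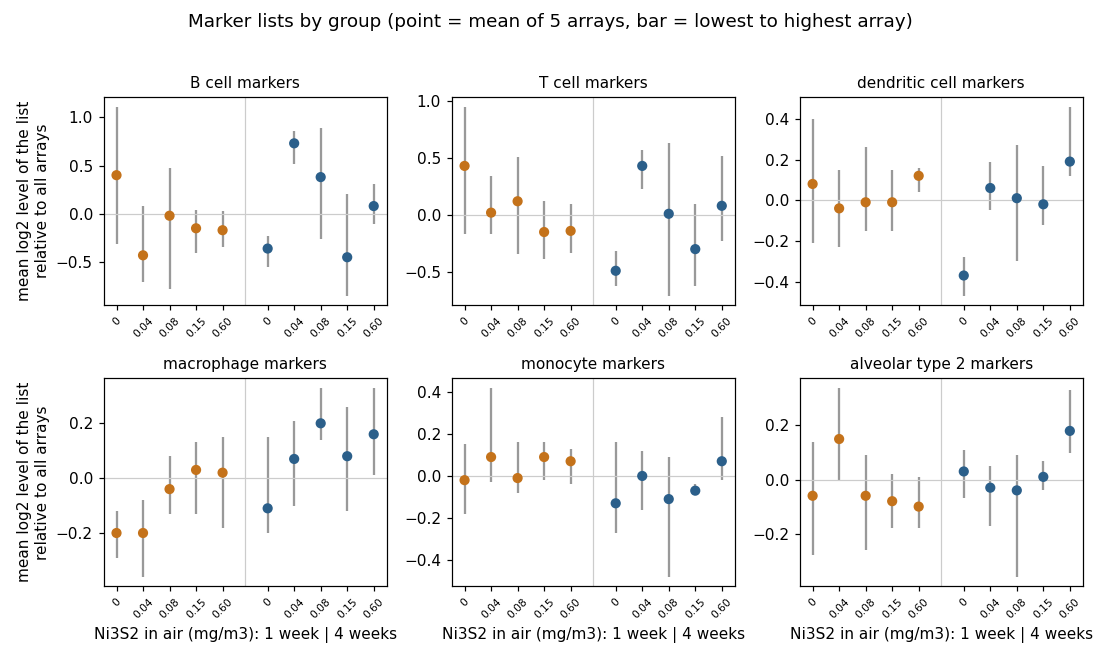
Mean log2 level of 6 marker lists relative to all arrays, by Ni3S2 concentration at 1 week (orange) and 4 weeks (blue); points are means of 5 arrays and bars run from the lowest to the highest array. B and T cell markers were higher at 0.04 and 0.60 mg/m3 for 4 weeks than in the 4-week controls, and dendritic cell markers were higher at 0.04, 0.15 and 0.60 mg/m3, each without overlap.

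The choice of probe set mattered for the RT1-B chains. RT1-Ba has 4 probe sets, whose mean levels are 11.36 (the one used), 4.81, 4.80 and 3.66, and at 0.60 mg/m3 for 4 weeks the 3 dim ones differed by -0.09 ± 0.11, -0.16 ± 0.12 and -0.03 ± 0.09, none past the threshold. With the mean of its probe sets RT1-Ba differed by 0.04 there (limma adjusted p = 0.774). RT1-Bb has 2, at 11.33 and 3.07, and the dim one differed by -0.12 ± 0.08 at 0.60 mg/m3 for 4 weeks and by 0.11 ± 0.08 at 0.60 mg/m3 for 1 week (limma adjusted p = 0.345 and 0.211). The bright set of RT1-Ba did not pass at 0.15 mg/m3 for 1 week (-0.20 ± 0.11), where 2 of its dim ones were lower (-0.39 ± 0.09 and -0.35 ± 0.11, limma adjusted p = 0.000136 and 0.00339). The dim sets thus did not repeat the rises of the bright ones at 0.60 mg/m3 for 4 weeks. That of RT1-Bb, at 3.07, lay near the signal of Cd80, where a change was not detectable. Its values therefore cannot decide the direction of RT1-Bb.

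The split of calls over all genes depended on scaling. When arrays were centred on their median, 38.7% of the genes called at 0.04 mg/m3 for 4 weeks were higher in place of 64.3%, 39.1% in place of 66.2% at 0.08 mg/m3 and 40.8% in place of 54.5% at 0.60 mg/m3. For 0.60 against 0.15 mg/m3 at 4 weeks it was 54.9% in place of 67% (57% with quantile normalisation), and for the interaction at 0.04 mg/m3 it was 36.3% in place of 60.2%. In the 8 comparisons with controls no called member turned in direction under either scaling.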

How the data were processed

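Values for 31042 probe sets on 50 Affymetrix HT rat arrays are log2 intensities as deposited, made by the authors with RMA and Partek per the submitters' processing notes; no source used here gives versions, scan dates or the arrays normalised together. Probe sets were named by the platform's gene table: 19063 list 1 symbol once, 572 have several entries (98 of them a single repeated symbol, as for RT1-Bb, and kept) and 11407 have none. For 4011 genes with several probe sets the one with the highest mean was used, which left 13490 genes. A linear model with 1 mean for each of 10 groups was fitted with limma 3.58.1 (lmFit, eBayes) in R 4.3.3, two-sided, with Benjamini-Hochberg adjustment over all genes of a contrast and a threshold of 0.05. No value was rescaled or filtered. The members, marker and pathway lists were chosen with earlier results of these data known. Named list genes are at most the 4 with the largest called changes of a list; likeness is Pearson's r, 5 genes each. The model was tested on simulated data. Alternatives covered scaling, filters, probe sets, weights, blocks, covariates and left-out arrays. The number of arrays, 5 a group, limits precision. Equal replicate numbers did not pair arrays: 62 of 225 same-numbered pairs had a correlation of deviations over 0.1. Promoter sequences came from RefSeq (GRCr8), which held 7 of 9 members. Lavage, histology and nickel burden were not used here.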

Additional observations from a re-analysis of the deposited data

Results flagged for a closer look

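Of 90 gene and group combinations, 4 had an animal far from the other 4 of its group, and chance alone marks about 1 in 20. These were RT1-DMa at 0.15 mg/m3 for 4 weeks (replicate 2, 7.38), RT1-Ba in the 4-week controls (replicate 1, 11.24), Cd74 at 0.60 mg/m3 for 1 week (replicate 1, 12.01) and Cd86 at 0.08 mg/m3 for 1 week (replicate 1, 4.00).

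The change against the controls differed between 4 weeks and 1 week, by the interaction term in limma, in 23 of 36 combinations of gene and concentration. Of all genes, 12%, 44.3%, 56.7% and 56.6% differed in the same way from the lowest concentration upward. The shares of members called at 0.15 and 0.60 mg/m3 are near that background. Positive values are more upward at 4 weeks, in log2 units. At 0.04 mg/m3 the differences were 0.59 for RT1-DMb, 0.45 for RT1-Da, 0.81 for RT1-Ba, 0.82 for RT1-Bb, 0.48 for Cd74 and 1.47 for Ciita. At 0.08 mg/m3 they were 1.02 for RT1-DMa, 1.00 for RT1-DMb, 0.41 for RT1-Ba, 0.91 for RT1-Bb, 1.57 for Ciita and -0.54 for Cd86. At 0.15 mg/m3 they were 1.38 for RT1-DMa, 1.36 for RT1-DMb, 1.16 for RT1-Bb, 1.65 for Ciita and -0.63 for Cd86. At 0.60 mg/m3 they were 1.74 for RT1-DMa, 1.56 for RT1-DMb, 0.62 for RT1-Ba, 1.40 for RT1-Bb, 0.30 for Cd74 and 1.64 for Ciita. The comparisons share the 2 control groups.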

How the results depend on the processing

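Of 848 single-gene values recomputed under other settings, 776 kept their direction and side of the threshold, 41 lost a call, 12 gained one, 1 changed sign with a call and 18 without; other probe sets and the 4-week controls are apart. Against the 4-week controls the 1-week values turned. In rising order of concentration, RT1-DMa was 1.89, 1.28, 0.69 and 0.89, RT1-DMb 1.60, 1.10, 0.45 and 0.68, RT1-Ba 0.22, 0.45, 0.31 and 0.33, RT1-Bb 0.98, 0.72, 0.26 and 0.42, Ciita 1.33, 0.98, 0.39 and 0.63, and Cd86 -0.50 at 0.04 mg/m3, where 5 members and 81.6% of all genes were then called. The dim probe set of RT1-Bb, near the signal of Cd80, gave 0.09, 0.04 and 0.11 at the 3 higher concentrations for 1 week. At 0.04, 0.08 and 0.60 mg/m3 for 4 weeks it gave -0.05, -0.12 and -0.12, and none of these values passed. The dim sets of RT1-Ba gave -0.03, -0.16 and -0.09 at 0.60 mg/m3 for 4 weeks. At 0.04 mg/m3 for 1 week those that turned gave 0.10 and 0.20, and the mean of all RT1-Ba probe sets gave 0.00. The count of members called at 0.04 mg/m3 for 1 week (2) was 1 under median centring, quantile normalisation, the mean of probe sets and the replicate block, 0 with only the compared arrays or a least 1.5-fold change, and 3 with array weights or the axis covariate. At 0.08 mg/m3 for 4 weeks (4) it was 7 with array weights, 2 under centring, the mean of probe sets or the covariate, 1 at 1.5-fold and 0 with only the compared arrays. At 0.15 mg/m3 for 4 weeks array weights gave 1. The 1.5-fold limit gave 3 at 0.08 mg/m3 for 1 week, 1 and 3 at 0.04 and 0.60 mg/m3 for 4 weeks, and the covariate gave 3 at 0.08 mg/m3 for 1 week. The cause was not tested. Arrays of one number did not deviate together (mean r -0.0014, against 0.001 for different numbers; 7 of 50 arrays were closest to their own number), and the replicate block changed no other count. Leaving out single arrays, the counts ranged from 0 to 4, 5 to 5, 5 to 6 and 5 to 6 over the 1-week concentrations in rising order and from 6 to 7, 0 to 7, 0 to 0 and 6 to 7 over the 4-week ones, from 6 to 7, 4 to 7, 5 to 6 and 6 to 7 for the interactions, 6 to 7 for the controls, 2 to 6 for 0.60 against 0.15 mg/m3 at 4 weeks, and 5 to 5 and 3 to 5 for the slopes at 1 and 4 weeks. Leaving out entries that list a symbol more than once, chosen after seeing the data, removed RT1-Bb and with it 1 call wherever it had passed. Cd80, at 2.58 to 3.21, allows no statement on change.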
